A study of Mus musculus with 8 samples.

Results

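The 10 genes described here are Dppa2, Dppa3, Dppa4, Dppa5a, Utf1, Tcl1, Nr0b1, Tbx3, Sall4 and Trim28, a set of ES cell markers and regulators chosen by name. They are 10 of the 18193 genes that have at least 1 probe set naming a single gene on the Affymetrix arrays of this series, and 19 such probe sets measure them. All 10 were among the 12982 genes tested, those whose probe set lay above the array median on at least 2 arrays, and each of the 10 met that limit on the embryoid body arrays alone. A gene is represented by its brightest probe set over the 8 arrays, and the others are given where they differ.

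The study asked, by its title, how the Polycomb group protein Bmi1 bears on blood cell development from ES cells. The cells were CCE, a mouse ES cell line of the 129/Sv strain, grown on gelatin in serum and leukemia inhibitory factor (LIF). The 4 groups had 2 arrays each. They were day 10 embryoid bodies from cells given a lentivirus with mouse Bmi1 cDNA, day 10 embryoid bodies from cells given the empty vector, undifferentiated ES cells given the Bmi1 virus, and control ES cells, of which 1 array came from untreated cells and 1 from empty vector cells. By the labels, transduced cells were sorted as eGFP positive pools after passage and no separate clones are named. An embryoid body is a floating aggregate in which ES cells differentiate into a mixture of cell types. All arrays come from 1 cell line, and no label says that the replicates came from separate infections or cultures, so the spread between replicate arrays that stands behind each p-value may be technical.

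Undifferentiated mouse ES cells hold a network of transcription factors and chromatin proteins that is taken down when LIF is withdrawn and the cells leave the naive state. Several of the genes here belong to the same early embryo and germ line programme, named "developmental pluripotency associated" (Dppa), and others feed LIF and PI3K signals into the network or silence repeats in it. In embryoid bodies the network can persist in cells that have not differentiated, and germ cell precursors use part of it again.

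Several properties of the whole series touch every result below. The deposited values are log2 RMA signals, and the 8 columns fell into 3 sets of separate value distributions: the pair of replicate 1 embryoid body arrays, the pair of replicate 2 ones, and all 4 arrays of ES cells. Sorted values of 2 arrays differed by a mean of 0.19 to 0.44 log2 units across sets and by at most 0.03 within a set. Stage and set therefore cannot be told apart in the ES cell arrays, and in the embryoid bodies each set holds 1 labelled Bmi1 and 1 vector array. The Bmi1 signal went against the labels: 1417493_at had 7.48 and 8.51 log2 units in labelled Bmi1 embryoid bodies, against 9.35 and 9.67 in vector embryoid bodies, and 5.68 and 6.28 in labelled Bmi1 ES cells, against 7.41 and 7.74 in control ES cells. The difference was -1.51 ± 0.37 (SE) in embryoid bodies (limma, adjusted p = 0.31, or 0.04 when the set was a block). In ES cells it was -1.59 ± 0.37 (0.26, or 0.041 with the block). The block acts on embryoid body arrays alone, so ES cell p-values change with it only through the spread pooled over all 8 arrays. Whether the Bmi1 probes cover the delivered cDNA and whether labels were crossed was not tested, so the groups are called labelled Bmi1 here. If labels were crossed, the sign of every labelled Bmi1 difference below would turn. Of the 12 core pluripotency factors that define ES cells, all 12 lay above the 95th percentile of 43 olfactory receptor probe sets on all 4 ES cell arrays. That percentile is used below as a gauge of background, since these receptors are not expected in ES cells or embryoid bodies.

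Dppa2 and Dppa4 are known to bind CpG-rich promoters, and whether they bind those of the other genes here was not tested. The promoters of 4 of the 10 genes, Utf1, Tcl1, Nr0b1 and Trim28, were found in the RefSeq promoter table (GRCm38.p6) and are shown for that reason. Each runs 300 bases, from 250 before to 50 after the annotated start, 5′ to 3′ on the gene's strand, and capitals mark CpG pairs. Utf1 is at chr7:139943606-139943905 (+), Tcl1 at chr12:105222688-105222987 (-), Nr0b1 at chrX:86191525-86191824 (+) and Trim28 at chr7:13023902-13024201 (+).
Utf1: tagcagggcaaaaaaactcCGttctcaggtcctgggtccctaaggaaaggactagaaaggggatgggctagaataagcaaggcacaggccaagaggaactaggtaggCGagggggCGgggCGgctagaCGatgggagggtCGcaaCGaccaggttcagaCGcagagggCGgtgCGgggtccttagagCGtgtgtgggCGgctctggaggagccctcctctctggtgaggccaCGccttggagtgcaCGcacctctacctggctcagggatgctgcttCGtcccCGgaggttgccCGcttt
Tcl1: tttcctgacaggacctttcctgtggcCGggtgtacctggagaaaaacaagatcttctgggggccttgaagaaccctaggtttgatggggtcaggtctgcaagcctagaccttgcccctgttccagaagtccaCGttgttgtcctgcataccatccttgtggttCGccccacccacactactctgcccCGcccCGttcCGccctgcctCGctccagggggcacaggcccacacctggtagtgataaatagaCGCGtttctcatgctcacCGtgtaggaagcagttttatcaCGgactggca
Nr0b1: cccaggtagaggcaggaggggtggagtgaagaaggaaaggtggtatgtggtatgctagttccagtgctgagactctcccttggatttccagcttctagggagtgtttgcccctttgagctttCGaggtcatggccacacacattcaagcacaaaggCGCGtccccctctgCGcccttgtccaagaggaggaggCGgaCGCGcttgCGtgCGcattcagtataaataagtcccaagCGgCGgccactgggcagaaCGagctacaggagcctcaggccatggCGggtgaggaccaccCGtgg
Trim28: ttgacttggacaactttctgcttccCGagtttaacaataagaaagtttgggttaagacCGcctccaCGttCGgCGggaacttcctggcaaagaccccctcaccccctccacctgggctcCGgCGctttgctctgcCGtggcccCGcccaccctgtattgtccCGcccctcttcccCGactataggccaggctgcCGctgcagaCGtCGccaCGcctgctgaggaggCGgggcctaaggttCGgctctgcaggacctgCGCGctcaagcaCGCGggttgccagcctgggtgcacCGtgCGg

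Trim28 had 23 CpG pairs in this window, Utf1 had 17, Nr0b1 had 14 and Tcl1 had 11, beside a median of 7 over the 32851 promoters of this length. The shares of promoters with fewer CpG pairs were 78.5% for Trim28, 68.6% for Utf1, 63.7% for Nr0b1 and 58.6% for Tcl1. The POU motif ATGCAAA, searched on both strands, was in none of the 4 windows and in 4.63% of all promoters. The Sox motif ACAAAG was in the Nr0b1 window alone, where it starts 101 bases before the start site, and in 18.7% of all promoters. The Sox motif ACAATG was in none of the 4 windows and in 12.6% of all promoters. These motifs do not overlap each other in the windows, and a match or its absence describes the letters of this window.

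All 10 genes were lower in day 10 embryoid bodies than in ES cells, by 1.65 to 4.49 log2 units in the vector cultures. Nr0b1, Dppa2 and Sall4 had the largest differences there, and Trim28 the smallest. In vector embryoid bodies minus control ES cells, limma with Benjamini-Hochberg adjustment over all genes tested called 10 of 10 lower at 0.05, where 35.8% of all genes tested were called lower. In labelled Bmi1 embryoid bodies minus labelled Bmi1 ES cells it called 9 of 10 lower, where 38% of all genes were. The median difference of the 10 was -2.83 in vector cultures and -2.73 in labelled Bmi1 cultures, beside -0.24 and -0.27 over all genes tested. All 4 embryoid body arrays lay below all 4 ES cell arrays for 10 of 10, a pattern shown by 42.7% of all genes tested. With set as a block, 10 of 10 were called in either culture, where 45.3% of all genes were called lower in vector cultures and 46.6% in labelled Bmi1 cultures. In bulk samples, fewer undifferentiated cells and less RNA per cell cannot be told apart.

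**Figure D1:**
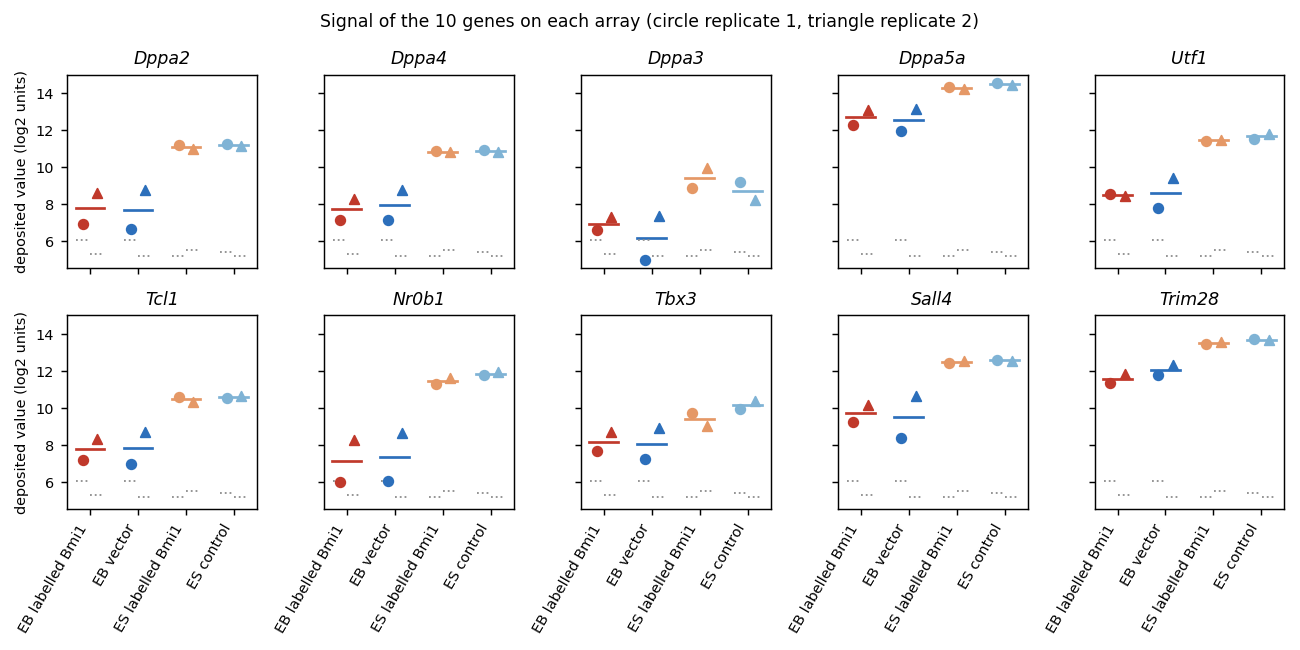
Deposited log2 signal of the probe set that stands for each gene (vertical axis) on each of the 8 arrays, in 4 groups, with circles for replicate 1, triangles for replicate 2 and a line at the group mean. Grey dotted lines mark the 95th percentile of olfactory receptor probe sets on each array. All 4 embryoid body arrays lie below all 4 ES cell arrays for every gene plotted.

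Dppa2 and Dppa4 encode partner proteins with a SAP domain that bind chromatin together and keep CpG-rich promoters of developmental genes free of DNA methylation. Dppa2 had 6.93 and 8.62 log2 units in labelled Bmi1 embryoid bodies, 6.64 and 8.75 in vector embryoid bodies, 11.19 and 10.99 in labelled Bmi1 ES cells, and 11.26 and 11.12 in control ES cells. Dppa4 had 7.17 and 8.27 in labelled Bmi1 embryoid bodies, 7.14 and 8.78 in vector embryoid bodies, 10.85 and 10.82 in labelled Bmi1 ES cells, and 10.93 and 10.80 in control ES cells. For both genes the ES cell arrays lay close together, and in each embryoid body group the replicate 2 array was the higher one. Dppa2 fell by 3.50 ± 0.73 (SE) in vector embryoid bodies (adjusted p = 0.0055) and fell by 3.32 ± 0.73 in labelled Bmi1 embryoid bodies (adjusted p = 0.007). Its second probe set, 1429654_at, ran the same way (-3.80 ± 0.61, adjusted p = 0.0023 in a fit over every probe set). Dppa4 fell by 2.91 ± 0.54 in vector embryoid bodies (adjusted p = 0.0034) and fell by 3.11 ± 0.54 in labelled Bmi1 embryoid bodies (adjusted p = 0.0026).

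Dppa3, also called Stella, encodes a maternal protein that shields the early embryo's DNA methylation and marks primordial germ cells. It had 6.61 and 7.29 log2 units in labelled Bmi1 embryoid bodies, 5.01 and 7.38 in vector embryoid bodies, 8.88 and 9.96 in labelled Bmi1 ES cells, and 9.22 and 8.22 in control ES cells. Of the 10 genes it had the widest spread between ES cell arrays of a group, 1.08 log2 units in labelled Bmi1 and 1.00 in control cells. It fell by 2.52 ± 0.77 (SE) in vector embryoid bodies (adjusted p = 0.026) and fell by 2.47 ± 0.77 in labelled Bmi1 embryoid bodies (adjusted p = 0.028). The replicate 1 vector embryoid body array was under the olfactory receptor gauge for Dppa3. The size in vector cultures therefore rests in part on a value not above background. The vector call was lost without the replicate 1 vector embryoid body array (-1.34, adjusted p = 0.089) and without the untreated ES cell array (-2.03, adjusted p = 0.14). The labelled Bmi1 call was lost without the replicate 1 or the replicate 2 embryoid body array (-2.13, adjusted p = 0.13, and -2.81, adjusted p = 0.054) and without the replicate 2 labelled Bmi1 ES cell array (-1.93, adjusted p = 0.15).

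Dppa5a, an RNA-binding protein of the KH type that marks ES cells, was among the brightest probe sets of the ES cell arrays, at the 99.7 to 99.9 percentile. Its signal was 12.25 and 13.12 log2 units in labelled Bmi1 embryoid bodies, 11.93 and 13.16 in vector embryoid bodies, 14.32 and 14.20 in labelled Bmi1 ES cells, and 14.53 and 14.46 in control ES cells. It fell by 1.95 ± 0.42 (SE) in vector embryoid bodies (adjusted p = 0.0065) and fell by 1.57 ± 0.42 in labelled Bmi1 embryoid bodies (adjusted p = 0.016). These levels are near the top of the scale, where the highest value was 14.37 to 14.48 on embryoid body arrays and 14.86 to 14.87 on ES cell arrays. With the 8 columns brought to 1 distribution by quantile normalization, the differences were -1.16 (adjusted p = 0.039) in vector cultures and -0.65 (adjusted p = 0.19) in labelled Bmi1 cultures. The labelled Bmi1 call was also lost without the replicate 1 embryoid body array (-1.14, adjusted p = 0.093) and without the replicate 1 or the replicate 2 labelled Bmi1 ES cell array (adjusted p = 0.076 and 0.062).

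Utf1 encodes a chromatin-bound protein that is a direct target of the Oct4 and Sox2 pair in ES cells. It had 8.57 and 8.46 log2 units in labelled Bmi1 embryoid bodies, 7.82 and 9.40 in vector embryoid bodies, 11.43 and 11.47 in labelled Bmi1 ES cells, and 11.53 and 11.81 in control ES cells. It fell by 3.06 ± 0.45 (SE) in vector embryoid bodies (adjusted p = 0.0013) and fell by 2.94 ± 0.45 in labelled Bmi1 embryoid bodies (adjusted p = 0.0016). With quantile normalization the differences were -2.42 (adjusted p = 0.0048) in vector and -2.27 (adjusted p = 0.0063) in labelled Bmi1 cultures, and with the mean of its 3 probe sets -1.41 (adjusted p = 0.0026) and -1.35 (adjusted p = 0.0033). Of its other probe sets, 1443786_at ran the same way (-2.27 ± 0.33 in vector cultures, adjusted p = 0.0016). For 1443786_at the replicate 1 arrays of both embryoid body groups were under the olfactory receptor gauge (5.01 in labelled Bmi1 and 5.08 in vector). That size therefore rests in part on values not above background. The dim 1458333_x_at, which was not tested, ran the other way: 5.67 and 5.19 in labelled Bmi1 embryoid bodies, 5.46 and 5.21 in vector embryoid bodies, 4.25 and 4.08 in labelled Bmi1 ES cells, and 4.28 and 4.18 in control ES cells.

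Tcl1 encodes a coactivator of the AKT kinases and helps ES cells proliferate. Its signal was 7.22 and 8.32 log2 units in labelled Bmi1 embryoid bodies, 6.97 and 8.69 in vector embryoid bodies, 10.63 and 10.31 in labelled Bmi1 ES cells, and 10.54 and 10.64 in control ES cells. It fell by 2.76 ± 0.56 (SE) in vector embryoid bodies (adjusted p = 0.005) and fell by 2.70 ± 0.56 in labelled Bmi1 embryoid bodies (adjusted p = 0.0056). Nr0b1, also called Dax1, is an X-linked orphan nuclear receptor that binds Oct4 and Nr5a2 in ES cells and represses steroid genes in the adrenal gland and gonad. It had 6.02 and 8.30 in labelled Bmi1 embryoid bodies, 6.06 and 8.67 in vector embryoid bodies, 11.31 and 11.62 in labelled Bmi1 ES cells, and 11.79 and 11.93 in control ES cells. It showed both the deepest fall and the widest gap between embryoid body replicates of the 10 genes. It fell by 4.49 ± 0.93 in vector embryoid bodies (adjusted p = 0.0053) and fell by 4.31 ± 0.93 in labelled Bmi1 embryoid bodies (adjusted p = 0.0064). Only 1 of 2 arrays in each embryoid body group, replicate 2, was above the olfactory receptor gauge for Nr0b1, so these sizes rest in part on values not above background.

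Tbx3 encodes a T-box factor that carries PI3K signals into the ES cell network and later patterns limb, heart and yolk sac. Its brightest probe set, 1448029_at, had 7.70 and 8.69 log2 units in labelled Bmi1 embryoid bodies, 7.25 and 8.92 in vector embryoid bodies, 9.76 and 9.05 in labelled Bmi1 ES cells, and 9.97 and 10.41 in control ES cells. All embryoid body arrays lay below all ES cell arrays, and the closest were the replicate 2 vector embryoid body array and the replicate 2 labelled Bmi1 ES cell array. It fell by 2.11 ± 0.58 (SE) in vector embryoid bodies (adjusted p = 0.017). In labelled Bmi1 embryoid bodies the difference was -1.21 ± 0.58 (adjusted p = 0.11), and it passed with set as a block (adjusted p = 0.0068) and without either vector embryoid body array (adjusted p = 0.028 each). The vector call was lost without the replicate 1 vector embryoid body array (-1.27, adjusted p = 0.058), without the empty vector ES cell array (-1.89, adjusted p = 0.089) and without the untreated ES cell array (-2.33).

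The 5 probe sets of Tbx3 disagreed. The bright 1437479_x_at gave -1.81 ± 0.65 (SE) in vector cultures (adjusted p = 0.0502 in the fit over every probe set) and -0.86 ± 0.65 in labelled Bmi1 cultures (adjusted p = 0.3). The dimmer 1445757_at rose, by 0.59 ± 0.20 in vector embryoid bodies (adjusted p = 0.042) and by 1.39 ± 0.20 in labelled Bmi1 embryoid bodies (adjusted p = 0.0015). It had 6.32 and 6.20 log2 units in labelled Bmi1 embryoid bodies, 5.69 and 6.04 in vector embryoid bodies, 4.86 and 4.87 in labelled Bmi1 ES cells, and 5.13 and 5.43 in control ES cells. The replicate 1 vector embryoid body array, the untreated ES cell array and both labelled Bmi1 ES cell arrays were under the olfactory receptor gauge for 1445757_at. The sizes of its rise therefore rest in part on values not above background. The other two, 1439567_at and 1444594_at, lay between 3.72 and 5.83 on all arrays and were not tested. With the mean of its probe sets, the Tbx3 difference was -0.0038 (adjusted p = 0.99) in labelled Bmi1 cultures and -0.62 (adjusted p = 0.076) in vector cultures. Which transcripts these probe sets match was not tested. The mean fall of Tbx3 holds for its bright probe sets alone, and 1437479_x_at was called in neither culture. On 1437479_x_at the stages also overlapped. Its replicate 2 embryoid body arrays (8.06 in labelled Bmi1 and 8.28 in vector) lay above the replicate 2 labelled Bmi1 ES cell array (7.99).

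Sall4 encodes a zinc finger protein that sustains Oct4 expression and self-renewal. It had 9.26 and 10.19 log2 units in labelled Bmi1 embryoid bodies, 8.36 and 10.66 in vector embryoid bodies, 12.43 and 12.55 in labelled Bmi1 ES cells, and 12.60 and 12.55 in control ES cells. The ES cell arrays lay close together, whereas the vector embryoid body arrays were 2.30 log2 units apart. Sall4 fell by 3.07 ± 0.67 (SE) in vector embryoid bodies (adjusted p = 0.0067) and fell by 2.76 ± 0.67 in labelled Bmi1 embryoid bodies (adjusted p = 0.01). The labelled Bmi1 call was lost without the replicate 1 embryoid body array (-2.29, adjusted p = 0.066) and without the replicate 2 labelled Bmi1 ES cell array (-2.70, adjusted p = 0.054). With quantile normalization the differences were -2.27 (adjusted p = 0.026) in vector and -1.89 (adjusted p = 0.049) in labelled Bmi1 cultures. Its second probe set, 1424153_s_at, ran the same way (-2.88 ± 0.60 in vector cultures, adjusted p = 0.0065). For 1424153_s_at the replicate 1 arrays of both embryoid body groups were under the olfactory receptor gauge (5.53 in labelled Bmi1 and 5.12 in vector). That size therefore rests in part on values not above background.

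Trim28, also called Kap1, is the corepressor through which KRAB zinc finger proteins silence endogenous retroviruses, and many tissues express it. Its signal was 11.35 and 11.82 log2 units in labelled Bmi1 embryoid bodies, 11.78 and 12.33 in vector embryoid bodies, 13.47 and 13.58 in labelled Bmi1 ES cells, and 13.71 and 13.70 in control ES cells. It fell by 1.65 ± 0.24 (SE) in vector embryoid bodies (adjusted p = 0.0013), which is 3.14-fold, and fell by 1.94 ± 0.24 in labelled Bmi1 embryoid bodies (adjusted p = 0.00074). With quantile normalization the differences were -0.70 (adjusted p = 0.026) and -0.95 (adjusted p = 0.0085). Its other probe set, 1415869_a_at, ran the same way (-2.07 ± 0.40 in vector cultures, adjusted p = 0.0048).

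The size of the fall depended on which embryoid body array was kept. Without the replicate 1 vector embryoid body array the vector differences were shallower, and without the replicate 2 array deeper, for all 10 genes, and 9 of them moved by over 1.5 times, Trim28 being the exception. Nr0b1 had -3.19 without replicate 1 and -5.80 without replicate 2, Dppa2 had -2.45 and -4.55, and Sall4 had -1.92 and -4.22. Utf1 had -2.27 and -3.85, Dppa4 -2.09 and -3.73, and Tcl1 -1.90 and -3.62. Dppa3 had -1.34 and -3.71, Tbx3 -1.27 and -2.94, Dppa5a -1.33 and -2.56, and Trim28 -1.37 and -1.92. In labelled Bmi1 cultures Nr0b1 and Dppa2 moved most in log2 units. Nr0b1 had -3.17 without the replicate 1 and -5.45 without the replicate 2 embryoid body array, and Dppa2 had -2.47 and -4.17. Tbx3 had -0.71 and -1.71, Dppa5a -1.14 and -2.01, and Tcl1 -2.15 and -3.24, whereas Utf1 hardly moved (-2.99 and -2.88). Without replicate 2, the Nr0b1 values of both cultures and the vector value of Dppa3 rest on an embryoid body array not above the olfactory receptor gauge. Their sizes there say only that little signal was left.

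**Figure D2:**
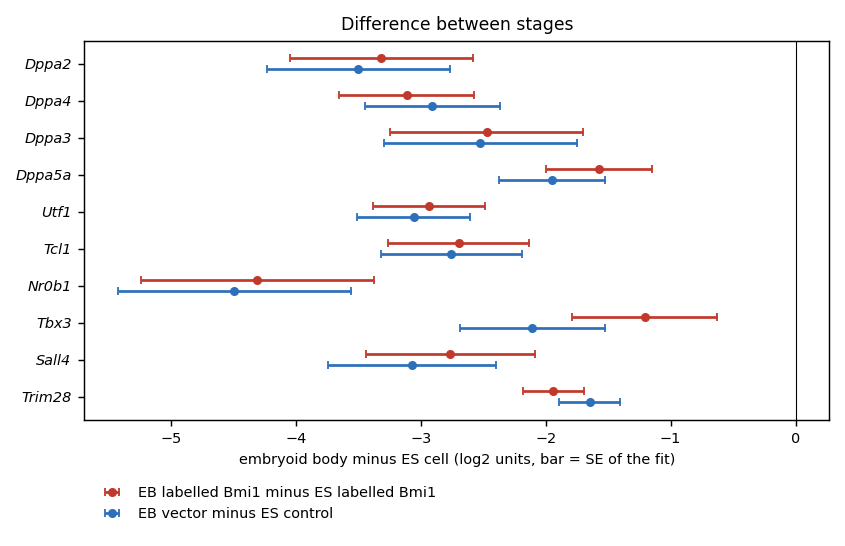
Embryoid body minus ES cell difference of each gene in log2 units (horizontal axis), for labelled Bmi1 and vector cultures, with the standard error of the limma fit as a bar. All points are below 0, from -1.21 for Tbx3 in labelled Bmi1 cultures to -4.49 for Nr0b1 in vector cultures.

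None of the 10 genes passed the test between labelled Bmi1 and vector embryoid bodies. limma called 0 of 10, with 0 of 10 at an unadjusted p under 0.05, where 0.139% of all genes tested were called. With the set as a block it also called 0 of 10, where 2.09% of all genes were called. The differences had a median of 0.01, beside -0.04 over all genes, and ran from -0.47 for Trim28 to 0.75 for Dppa3. For none of the 10 did the labelled Bmi1 arrays lie wholly above or below the vector arrays, a separation shown by 25.2% of all genes.

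Within the sets the signs differed. On the replicate 1 arrays, 8 of 10 genes were higher in labelled Bmi1 than in vector embryoid bodies, among them Sall4 (0.90) and Utf1 (0.75). The Dppa3 difference there was 1.59, against a vector array not above the olfactory receptor gauge. On the replicate 2 arrays, 10 of 10 were lower in labelled Bmi1 than in vector embryoid bodies, led by Utf1 (-0.94), Trim28 (-0.51) and Dppa4 (-0.51). The shares of all genes with these signs within a set were not counted, so whether the counts are particular to the 10 genes was not tested. Trim28 and Nr0b1 were lower in both sets, Trim28 by 0.43 and 0.51 log2 units and Nr0b1 by 0.05 and 0.38. The Trim28 difference was -0.47 ± 0.24 (SE; adjusted p = 0.78, or 0.08 with the block). For Dppa3 the within-set values were 1.59 and -0.10, so its mean difference came from the replicate 1 pair, in which the vector array stood at 5.01.

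**Figure D3:**
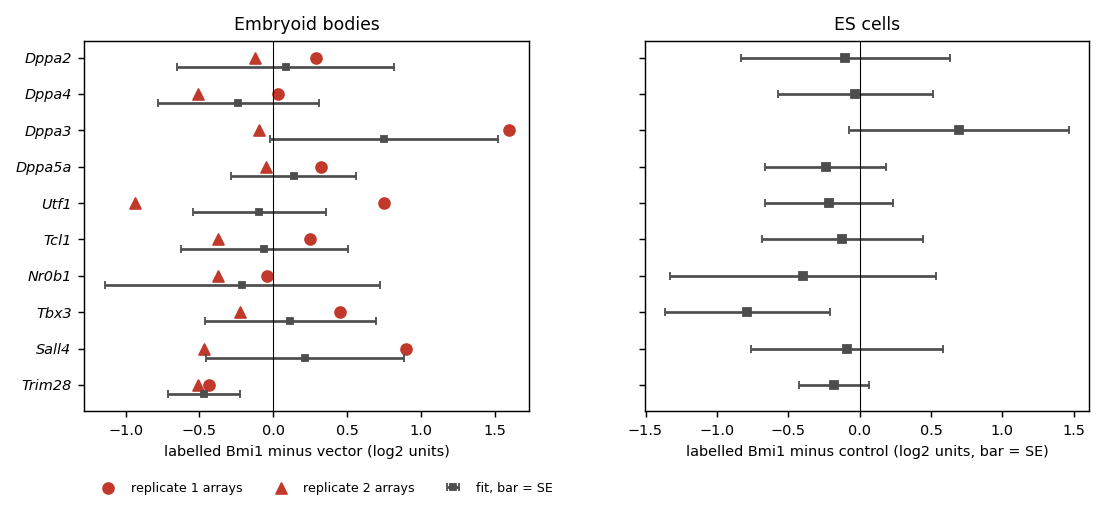
Labelled Bmi1 minus vector difference of each gene in embryoid bodies (left) and labelled Bmi1 minus control difference in ES cells (right), in log2 units, with squares for the limma fit and its standard error as a bar, and, in the left panel alone, circles and triangles for the replicate 1 and replicate 2 array pairs. In embryoid bodies the triangles of all 10 genes are below 0, and 8 of the 10 circles are above 0.

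In ES cells, limma likewise called 0 of 10 genes between labelled Bmi1 and control cells, with 0 of 10 at an unadjusted p under 0.05, where 0.0462% of all genes tested were called. It called 0 of 10 with the block, where 1.66% of all genes were called. The block adjusts no ES cell array, and the standard errors here pool the spread of both stages. Over all genes tested, replicates differed by a root mean square of 0.27 in labelled Bmi1 and 0.23 log2 units in control ES cells. In labelled Bmi1 and vector embryoid bodies this was 0.51 and 0.67. The differences had a median of -0.15, beside 0.004 over all genes tested, and 9 of 10 means were lower in labelled Bmi1 cells. The share of all genes with a lower mean was not counted, so whether this count is particular to the 10 genes was not tested. Differences of the 10 genes ran from -0.79 ± 0.58 (SE) for Tbx3 to 0.70 ± 0.77 for Dppa3. For 6 of 10 genes (Dppa5a, Utf1, Nr0b1, Tbx3, Sall4 and Trim28) both labelled Bmi1 arrays lay below both control arrays, as they did for 20.6% of all genes. The gaps were small for 5 of the 6, with differences of -0.09 for Sall4 to -0.39 for Nr0b1. The difference between the embryoid body effect and the ES cell effect was called for 0 of 10, with 0 of 10 at an unadjusted p under 0.05, where 0% of all genes were called, and for 0 of 10 with the block, where 0.824% were. It ran from -0.29 ± 0.34 for Trim28 to 0.90 ± 0.82 for Tbx3.

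Every gene kept a measurable part of its ES cell signal on at least 2 of the 4 embryoid body arrays. The residual is given as a percent of the mean control ES cell signal of the same probe set, computed from log2 differences. Each value was set against the olfactory receptor gauge of its array, which was 6.07 and 5.33 log2 units on the replicate 1 and replicate 2 labelled Bmi1 embryoid body arrays and 6.09 and 5.20 on the vector ones. All 10 genes were above this level on both replicate 2 arrays. On the replicate 1 arrays 9 of 10 were above it in labelled Bmi1 and 8 of 10 in vector embryoid bodies. The exceptions were Nr0b1, which lay 0.05 and 0.03 log2 units under it on the replicate 1 labelled Bmi1 and vector arrays, and Dppa3 on the replicate 1 vector array.

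The median residual over the 10 genes was 10.8% and 19.9% on the replicate 1 and replicate 2 labelled Bmi1 arrays, and 7.60% and 26.6% on the replicate 1 and replicate 2 vector arrays. Nr0b1 had 8.46% in labelled Bmi1 and 11.0% in vector embryoid bodies on the replicate 2 arrays, the lowest of the 10 there. Its replicate 1 values, 1.74% in labelled Bmi1 and 1.80% in vector embryoid bodies, are at background and say only that little signal was left. Dppa2 had 5.19% and 16.8% in labelled Bmi1 and 4.26% and 18.3% in vector embryoid bodies. Its partner Dppa4 was similar, with 7.73% and 16.5% in labelled Bmi1 and 7.55% and 23.5% in vector embryoid bodies.

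Tcl1 and Sall4 were in the middle of the range. Tcl1 had 9.69% and 20.7% in labelled Bmi1 and 8.16% and 26.8% in vector embryoid bodies. Sall4 had 10.0% and 19.1% in labelled Bmi1 and 5.38% and 26.4% in vector embryoid bodies. Utf1 had 11.7% and 10.8% in labelled Bmi1 embryoid bodies, whose arrays were alike, and 6.95% and 20.7% in vector embryoid bodies.

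The genes with the largest residuals on the replicate 2 arrays were Dppa5a, Tbx3, Trim28 and Dppa3. Dppa5a had 21.1% and 38.4% in labelled Bmi1 and 16.9% and 39.6% in vector embryoid bodies. Tbx3 had 17.8% and 35.5% in labelled Bmi1 and 13.0% and 41.4% in vector embryoid bodies. Trim28, which differentiated tissues also express, had 19.5% and 27.1% in labelled Bmi1 and 26.4% and 38.6% in vector embryoid bodies. Dppa3 had 23.1% and 37.0% in labelled Bmi1 and 7.64% (not above background) and 39.6% in vector embryoid bodies, beside control ES cell arrays that themselves differed by 1.00 log2 unit. The order of genes between Tcl1, Sall4 and Utf1 changed from array to array. Residuals also depend on the scale of the array sets. After quantile normalization the medians were 20.8% and 29.4% in labelled Bmi1 and 10.4% and 36.9% in vector embryoid bodies. Trim28 then had 41.0% and 51.4% in labelled Bmi1 and 53.1% and 71.5% in vector embryoid bodies, and Dppa5a had 40.0% and 65.0% in labelled Bmi1 and 30.5% and 65.2% in vector embryoid bodies.

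**Figure D4:**
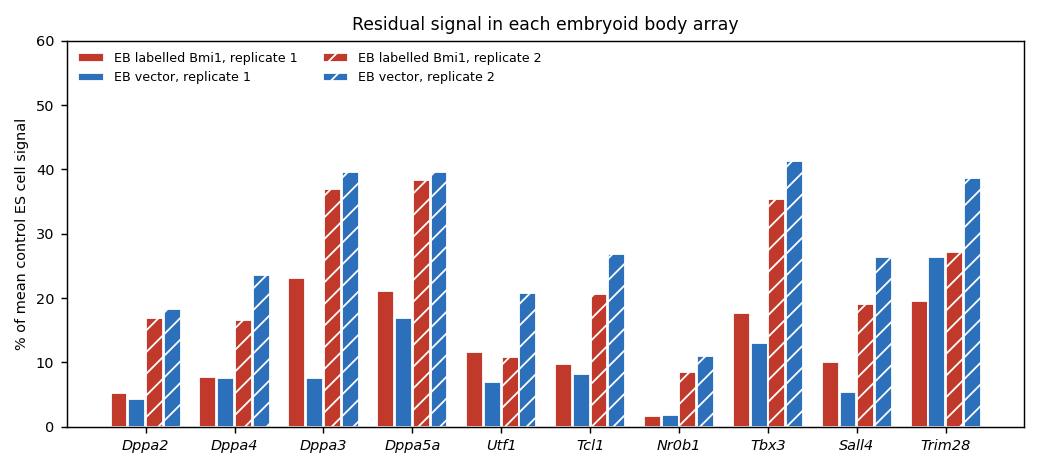
Signal of each gene on each embryoid body array as a percent of its mean control ES cell signal (vertical axis, starting at 0), with plain bars for replicate 1 and hatched bars for replicate 2. Nr0b1 has the lowest bars, from 1.74% to 11.0%, those of replicate 1 being at background, and the replicate 2 bar exceeds the replicate 1 bar of its group for every gene except Utf1 in labelled Bmi1 embryoid bodies.

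The replicate 2 embryoid body arrays held more residual signal than the replicate 1 arrays. The replicate 2 array was higher than the replicate 1 array for 9 of 10 genes in labelled Bmi1 embryoid bodies, with Utf1 at -0.11, and for 10 of 10 in vector embryoid bodies, beside 64.3% and 59.2% of all genes tested. The median difference of the 10 was 0.97 log2 units in labelled Bmi1 and 1.69 in vector embryoid bodies, beside 0.16 and 0.13 over all genes tested. After quantile normalization, an alternative chosen after seeing the data, it was 0.74 and 1.66. With 1 array per set and culture this difference has no replicate and no test. In labelled Bmi1 embryoid bodies Nr0b1 (2.28) and Dppa2 (1.70) differed most. In vector embryoid bodies Nr0b1 (2.61), Dppa3 (2.37) and Sall4 (2.30) differed most, and Trim28 (0.55) least. Replicate 1 arrays were not above the olfactory receptor gauge for Nr0b1 in either culture and for Dppa3 in vector embryoid bodies. Those differences therefore rest in part on values not above background.

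Other marker lists moved with the sets too, as medians of replicate 2 minus replicate 1. The core pluripotency factors gave 0.99 in labelled Bmi1 and 1.82 in vector embryoid bodies, with 11 of 12 higher in either, and the other ES cell markers gave 1.26 and 1.60, with 20 of 20 higher in either. The germ cell markers gave 0.44 and 1.24, and the formative and primed epiblast genes 0.39 and 1.51. Of lists of differentiated cells, heart muscle gave 0.25 and 2.35, fibroblast and mesenchyme -0.15 and -1.70, primitive and visceral endoderm -0.01 and 0.68, and trophoblast -0.08 and 0.00. The part of these cell types in the difference was not tested. The summed signal of the 12 core factors was 12.10 and 13.36 log2 units on the replicate 1 and replicate 2 labelled Bmi1 arrays, 11.81 and 13.73 on the vector arrays, and 15.60 to 15.96 on the ES cell arrays. The summed fibroblast and mesenchyme signal was 14.94 and 14.54 in labelled Bmi1 and 15.40 and 13.95 in vector embryoid bodies, and 7.98 to 8.08 on the ES cell arrays. Of 13 germ cell markers measured, 2 (Tex101 and Tdrd1) were below the olfactory receptor level on all 4 embryoid body arrays. Prdm1, Tfap2c, Kit, Stra8 and Dmrt1 were above it on all 4, and the remaining ones on some of these arrays.

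**Figure D5:**
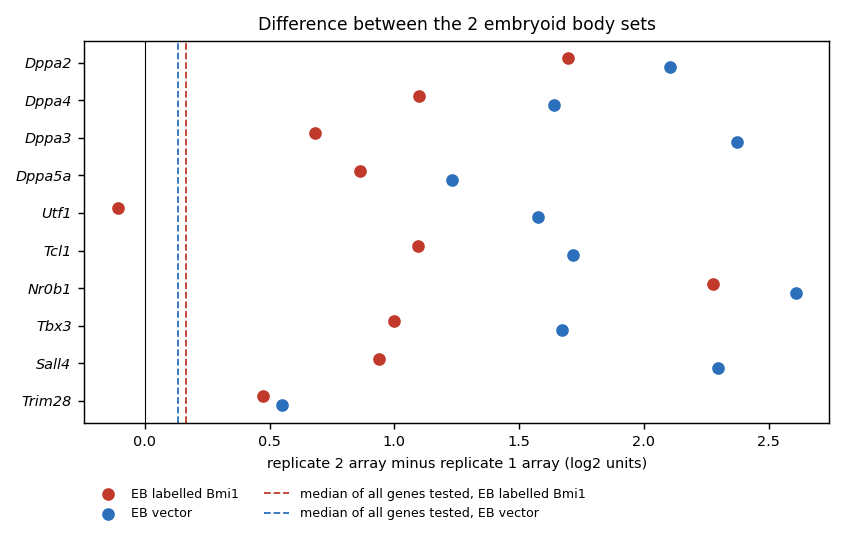
Replicate 2 minus replicate 1 difference of each gene in log2 units (horizontal axis), for labelled Bmi1 and vector embryoid bodies, with dashed lines at the median of all genes tested. All points except Utf1 in labelled Bmi1 embryoid bodies (-0.11) lie right of both lines, which are at 0.16 and 0.13.

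The genes around these 10 were read from lists of partners, relatives and other markers, given as counts of vector embryoid bodies minus control ES cells. For reading the counts, 35.8% of all genes were called lower, as above, and 22.7% were called higher. Of the 12 core pluripotency factors 11 fell, among them Pou5f1, the gene of Oct4 (-5.07 ± 0.56, SE; adjusted p = 0.00043), Foxd3 (-3.67 ± 0.25, adjusted p = 7.1e-05; above the gauge on 1 of 2 vector embryoid body arrays), Klf4 (-3.28 ± 0.39, adjusted p = 0.00054) and Nr5a2 (-2.94 ± 0.34, adjusted p = 0.00053), whose protein binds Nr0b1. Of 20 other ES cell markers tested 17 fell and 1 rose, and L1td1, an RNA-binding protein of ES cells, fell by 4.17 ± 0.54 (adjusted p = 0.00079). Of 10 genes of the LIF and STAT3 response 7 fell and none rose, among them the homeobox gene Gbx2, not above the olfactory receptor gauge in vector embryoid bodies and so at least 37.0-fold lower there (adjusted p = 1.5e-05), and the kinase gene Pim3 (-1.98 ± 0.22, adjusted p = 0.00042).

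Of 14 partners of Trim28, 11 fell and 1 rose. Uhrf1, which reads hemimethylated DNA and is held back by Dppa3, fell by 3.37 ± 0.57 (SE; adjusted p = 0.0022), Morc2a, a silencing ATPase, by 1.69 ± 0.24 (adjusted p = 0.0011), the heterochromatin protein gene Cbx1 by 1.60 ± 0.27 (adjusted p = 0.0021) and Chd4, the remodelling ATPase of the NuRD complex, by 1.42 ± 0.23 (adjusted p = 0.002). Of 7 relatives of Tbx3 and Sall4, 4 rose and 1 fell. Tbx4 and Tbx2 were not above the olfactory receptor gauge in control ES cells, so Tbx4, a limb factor, was at least 4.69-fold higher (adjusted p = 0.00026) and Tbx2, which acts in the heart, at least 2.21-fold higher (adjusted p = 0.00036). Tbx5 (1.27 ± 0.20, adjusted p = 0.0016) patterns the forelimb and heart, and Tbx20 (3.27 ± 0.46, adjusted p = 0.001; above the gauge on 1 of 2 control ES cell arrays) acts in the heart. Around Tcl1, 2 of 7 AKT pathway genes fell and 1 rose, with Akt2 at -0.57 ± 0.15 (adjusted p = 0.015) and Akt1 at 0.67 ± 0.18 (adjusted p = 0.016). Of 5 partners and steroid genes of Nr0b1, 1 fell, Cyp11a1, which makes pregnenolone, and none rose. Cyp11a1 was not above the gauge in vector embryoid bodies and was at least 2.77-fold lower there (adjusted p = 0.00022).

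Of 11 germ cell markers 3 fell and 1 rose. Dnd1 (-2.14 ± 0.33, SE; adjusted p = 0.0016), Ddx4 (-2.23 ± 0.44, adjusted p = 0.0042) and Dmrt1 (-2.05 ± 0.48, adjusted p = 0.0093) fell, Dnd1 and Ddx4 being above the gauge on 1 of 2 vector embryoid body arrays, and Stra8, a gene of entry into meiosis, rose by 1.30 ± 0.18 (adjusted p = 0.00093). Of 8 formative and primed epiblast genes 3 fell and none rose, among them Dnmt3b (-2.34 ± 0.55, adjusted p = 0.0089) and Sox3 (-1.71 ± 0.19, adjusted p = 0.0004; above the gauge on 1 of 2 vector embryoid body arrays). A list of 12 genes of the 2-cell stage held Dux itself and genes that Dppa2 and Dppa4 are known to switch on through it. Of these, 4 were measured and 1 was tested, Zfp352. It lay at 6.31 and 5.40 log2 units in vector embryoid bodies, close to the gauge of 6.09 and 5.20, and under the gauge in control ES cells, so its difference of 1.18 ± 0.34 (adjusted p = 0.021) is not shown to be expression. Markers of differentiated cells rose in the same embryoid bodies: 9 of 10 of primitive and visceral endoderm, 6 of 8 of heart muscle, 8 of 9 of fibroblast and mesenchyme and 4 of 7 of trophoblast, with none lower in these 4 lists. Between labelled Bmi1 and vector embryoid bodies a few genes of these lists passed with the block and not without it. Among them were the adhesion gene Pecam1 (-1.47 ± 0.36, adjusted p = 0.31 without and 0.034 with the block; above the gauge on 1 of 2 labelled Bmi1 arrays) and, of the LIF list, Pim3 (0.77 ± 0.22, adjusted p = 0.39 without and 0.044 with the block). In the lists of differentiated cells, calls with the block included the endoderm factor Gata4 (-1.04 ± 0.28, adjusted p = 0.35 without and 0.029 with it), the myosin gene Myh6 (3.47 ± 0.86, adjusted p = 0.31 and 0.047; above the gauge on 1 of 2 vector arrays) and the placental gene Plac1 (1.49 ± 0.26, adjusted p = 0.15 and 0.017). Between labelled Bmi1 and control ES cells, genes that passed with the block alone included the germ cell helicase gene Ddx4 (2.20 ± 0.44, adjusted p = 0.18 and 0.029), the epiblast factor Pou3f1 (1.75 ± 0.44, adjusted p = 0.34 and 0.04) and the endoderm gene Dab2 (1.27 ± 0.20, adjusted p = 0.13 and 0.029). No ES cell array is adjusted by the block, which changes only the pooled spread behind these values.

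Profiles over the 8 arrays, each centred on its mean, were compared by root mean square difference, where a low value is a close match. Within the 10 genes the closest pair was Dppa4 and Tcl1 (0.18 log2 units), followed by Tcl1 and Sall4 (0.23) and Dppa4 and Sall4 (0.24), while the partners Dppa2 and Dppa4 stood at 0.30. Among all genes tested, the closest to Dppa2 were Triml1 (0.21), Uhrf1 (0.22) and Nanog (0.24). Those closest to Dppa4 were Utp18 (0.07), Tdgf1 (0.09) and Tcea3 (0.09). Those closest to Nr0b1 were Eras (0.27), Eprn (0.33) and Snhg3 (0.38). Dppa3 had no near match, with Epcam (0.39), Dnmt3b (0.40) and Trim71 (0.48) as its closest.

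For the others the closest were Mlh3, Setd6 and Rpusd2 for Dppa5a (0.09 to 0.10), and Dmtn, Ppan and Wdr46 for Utf1 (0.17 to 0.22). Zcchc10, Ddx21 and Msh6 were closest to Tcl1 (0.11 to 0.12), and Epb41l4a, Ly75 and Zfp229 to Tbx3 (0.17 to 0.29). Rrp12, Zfp936 and Esco2 were closest to Sall4 (0.12 to 0.19), and Cnot9, Sae1 and 2810025M15Rik to Trim28 (0.07 to 0.09). These are descriptions over 8 arrays that share 1 large difference between stages.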

How the data were processed

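Total RNA from each sample was hybridised to 1 Affymetrix array. The deposited log2 values were made with RMA by the authors, per the submitters' processing notes, whose version and joint runs are not given in the sources used here. RMA corrects background, equalises arrays processed together and summarises probes, so values of sets run apart can differ by scaling. After 64 control probe sets were set aside, 45037 remained, of which 34945 name 1 gene, 932 several and 9160 none.

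A gene was represented by its 1-symbol probe set with the highest mean. The moderated test of limma 3.58.1, under R 4.3.3, was run on 12982 genes over 4 states and 8 arrays, with Benjamini-Hochberg adjustment at 0.05. It was also run on simulated data with independent noise on each array. That simulation held no shared shift between embryoid body sets, so it does not check the unblocked fit under such a shift. Untreated and empty vector ES cells formed 1 control group. The number of arrays limits the precision. Where a named gene was not above the olfactory receptor gauge on both arrays of 1 group, its fold is a lower bound against the higher of its value and the gauge. Alternatives were no filter and a stricter filter, other normalizations, another prior, the mean of probe sets, a fit over every probe set (chosen after seeing the data), arrays of 1 stage, each array left out, and replicate blocks.

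Deviations of same-numbered embryoid body arrays from their group means correlated (r = 0.72 over genes), but against the labelled Bmi1 ES cell arrays r was 0.03 and 0.04. The labels tie no number to a batch, so the block stands beside the unblocked fit. That block covers the embryoid body sets and adjusts no ES cell array.

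The members and lists were chosen with earlier results of these data known. Named from each list were up to 4 genes with the smallest p between stages and up to 2 in each labelled Bmi1 comparison, and for each member the 3 nearest profiles. Dissenting probe sets were named after their values were seen.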

Additional observations from a re-analysis of the deposited data

How the results depend on the processing

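In vector embryoid bodies minus control ES cells 10 of 10 were called, 9 with the mean of probe sets and 8 to 10 without 1 array. In labelled Bmi1 embryoid bodies minus labelled Bmi1 ES cells 9 of 10 were called, 8 under quantile normalization, 10 with the replicate block and 6 to 10 without 1 array. The lowest, 6, came without the replicate 1 labelled Bmi1 embryoid body array and without the replicate 2 labelled Bmi1 ES cell array, which each ended the calls of Dppa3, Dppa5a and Sall4. The counts for the labelled Bmi1 effects and for their difference were 0 under all alternatives run. The replicate block, the paired fit of the embryoid body sets, changed the call of Tbx3 in labelled Bmi1 cultures and no other call of the 10 genes, and a block over the 6 numbered arrays kept the count at 9. Of the genes called between stages, 61.2% were lower in vector embryoid bodies as deposited, 51.3% after quantile normalization and 73.4% after median centring. In labelled Bmi1 embryoid bodies these shares were 64.2%, 52.7% and 77.2%. In vector cultures the median of all genes was -0.24 as deposited, -0.04 after quantile normalization and -0.56 after median centring, and that of the 10 genes was -2.83, -2.41 and -3.15. Under quantile normalization the labelled Bmi1 minus vector difference of Tcl1 in embryoid bodies changed sign, to 0.0056 against -0.06 as deposited, and the cause was not tested.

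Signs of uncalled differences turned when 1 array was left out. In labelled Bmi1 minus vector embryoid bodies the ranges were Dppa2 -0.97 to 1.14, Dppa3 -0.44 to 1.93, Dppa4 -1.06 to 0.58, Dppa5a -0.48 to 0.75, Utf1 -0.88 to 0.69, Tcl1 -0.92 to 0.80, Nr0b1 -1.52 to 1.09, Tbx3 -0.72 to 0.95 and Sall4 -0.93 to 1.36. In labelled Bmi1 minus control ES cells they were Dppa2 -0.20 to 0.0006, Dppa4 -0.10 to 0.0348, and Tcl1 -0.28 to 0.0349. For the difference of the effects they were Dppa2 -0.87 to 1.24, Dppa3 -1.13 to 1.24, Dppa4 -1.02 to 0.61, Dppa5a -0.24 to 0.99, Utf1 -0.67 to 0.91, Tcl1 -0.80 to 0.92, Nr0b1 -1.12 to 1.49 and Sall4 -0.84 to 1.46. Fewer arrays went into each of these fits, and a lone array was assumed to vary like the other groups.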
